A study of Arabidopsis thaliana with 4 samples.

Results

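Polycomb and histone methylation genes encode the proteins that write, read and remove methyl groups on histone H3. Polycomb repressive complex 2 (PRC2) methylates lysine 27 (H3K27) and thereby marks silent genes, and PRC1-type proteins read that mark or ubiquitinate histone H2A. Trithorax-type enzymes methylate lysine 4 (H3K4) at active genes, and Jumonji and LSD1-like demethylases erase these marks. In Arabidopsis seedlings the system is known for holding flowering, meristem and seed genes silent. The 54 genes described here, of 32548 in the deposited table, were taken from a fixed list of identifiers whose rule used no measured value. The list was drawn up with earlier results of these data known. They cover PRC2 and PRC1 subunits, Polycomb recruiters, H3K27 and H3K4 enzymes, chromatin remodellers and histone deacetylases.

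Transcripts were measured in 10-day-old seedlings of Arabidopsis thaliana, grown on MS plates at 22 °C in long days (16 h light, 8 h dark). The groups were wild-type Col-0 and the mutant bdt1-/- in the Col-0 background, with 2 libraries each. The labels do not say whether replicates came from separate cultures, so p-values measure the spread between these libraries, which may be technical. The genotype label reads bdt1-/- and the source label btl1-/-, taken as names of 1 mutant, and the labels do not give its allele. Recovered totals were 22914893 to 27435729 reads per library. The leaf gene RBCS1A and the root gene PYK10 were both abundant, at lowest 274500 and 42400 normalised reads in a library. The leaf gene CAB1 was at 203000 and 179700 in Col-0 and lower in bdt1, at 138300 and 140400 (limma adjusted p = 0.030). The root gene IRT2 and the root hair gene SHV2 were low, at 14.7 to 21.0 and 59.1 to 95.8 normalised reads. In such bulk tissue, fewer cells of a type and less RNA per cell cannot be told apart. AT4G11560, which encodes a bromo-adjacent homology (BAH) domain protein and which background knowledge ties to the name BDT1, was at 1135 and 1117 normalised reads in Col-0 and at 313 and 324 in bdt1.

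The comparison asked whether transcripts of this machinery differ between bdt1 and wild type. No member passed the test in either direction. Of the 54 genes, 53 had enough reads to be tested (a mean of at least 1 normalised read), and 0 were called higher and 0 lower (limma, adjusted p under 0.05 over all tested genes). Of all 23256 tested genes 2.06% were called, 1.2% higher and 0.856% lower. At that share 1.09 of 53 genes would be called, so a count of 0 does not set the members apart. At an unadjusted p under 0.05, 1 member was higher and 5 were lower, against 8.61% and 7.76% of all tested genes. The edgeR quasi-likelihood test and DESeq2 on recovered counts also called 0 members, where they called 2.57% and 2.11% of all tested genes. With the replicate number as a block, 1 member was called higher and 1 lower, where 7.82% of all tested genes were called.

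The measured differences were small for the well-expressed members. Among the 48 with a mean of at least 100 normalised reads, log2 fold changes lay between -0.28 and 0.25, so that no measured difference exceeded 1.21-fold. For 47 of the 53 tested members, or 88.7%, the whole 95% interval of the difference lay within a 1.5-fold change either way. The same held for 61.9% of all tested genes, whose median count was 321 against 697 for the members. The 6 members whose interval reached past 1.5-fold were AT3G23060, RING1B, ATXR6, JMJ32, LDL2 and JMJ15. All 6 had fewer than 260 normalised reads in every library.

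**Figure D1:**
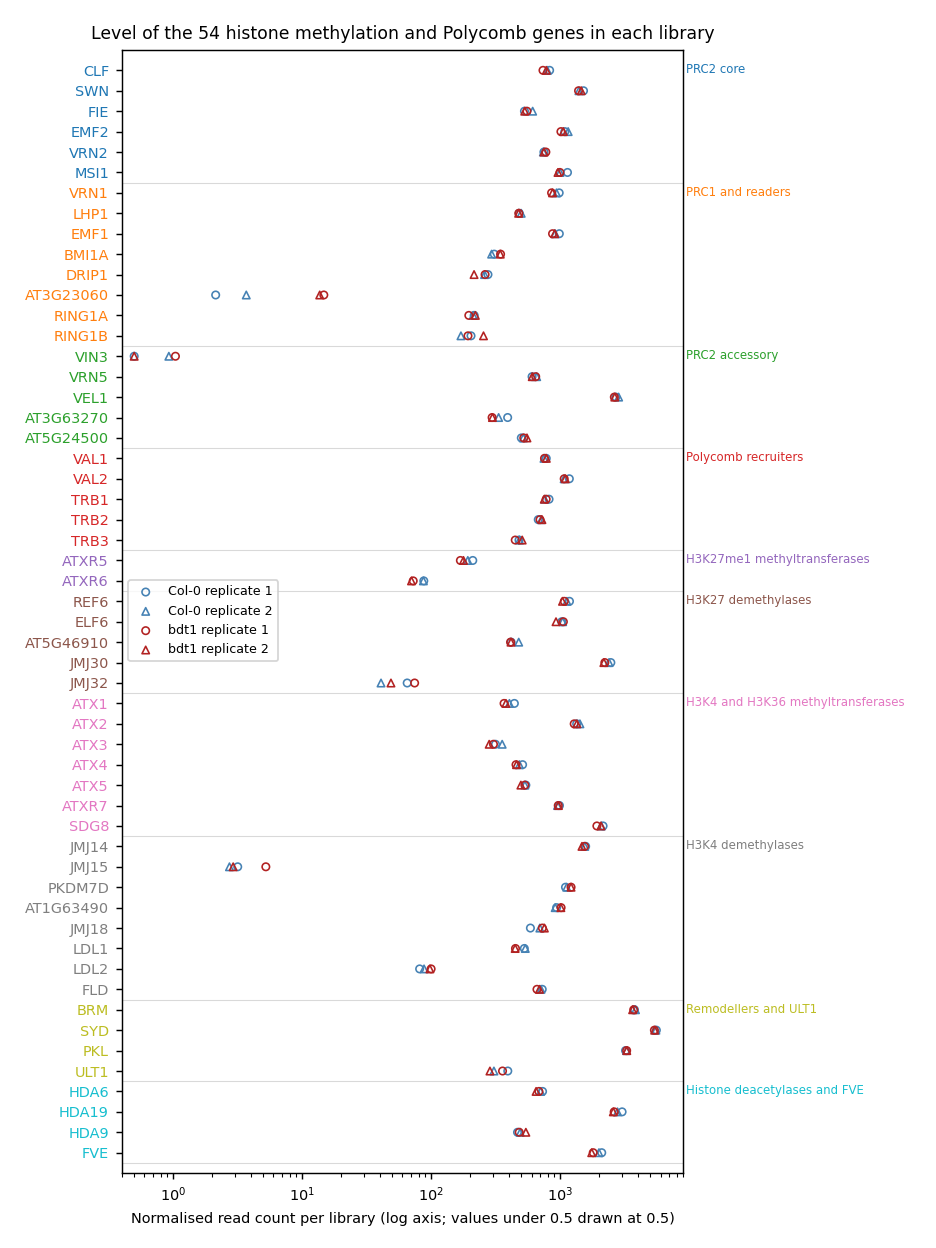
Normalised read count of each of the 54 genes on a log axis, with 1 symbol per library (Col-0 blue, bdt1 red; circles replicate 1, triangles replicate 2) and gene names coloured by role. The 4 symbols lie close together for nearly every gene, and AT3G23060 is the gene with the widest gap between genotypes.

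Most members lay slightly lower in bdt1. The log2 fold change was negative for 38 of 53 members (71.7%) and for 49.3% of all tested genes, and the members' median was -0.06 against 0.00 for all tested genes. Among tested genes with a mean of at least 100 reads, 54.9% were negative with a median of -0.02. In 26 of 53 members (49.1%) both bdt1 libraries lay below both Col-0 libraries, as in 23.7% of all tested genes. In 9 members (17%) both lay above, as in 25.2%. For the members the median size of the difference between genotype means was 0.105 on the log2 scale, while replicates 1 and 2 differed by a median of 0.0716 in Col-0 and 0.05 in bdt1. For all tested genes these medians were 0.135, 0.143 and 0.107. Means of 2 libraries vary less than single libraries, so the genotype and replicate differences are not on the same footing. Quantile normalisation moved the members' median to -0.04.

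**Figure D2:**
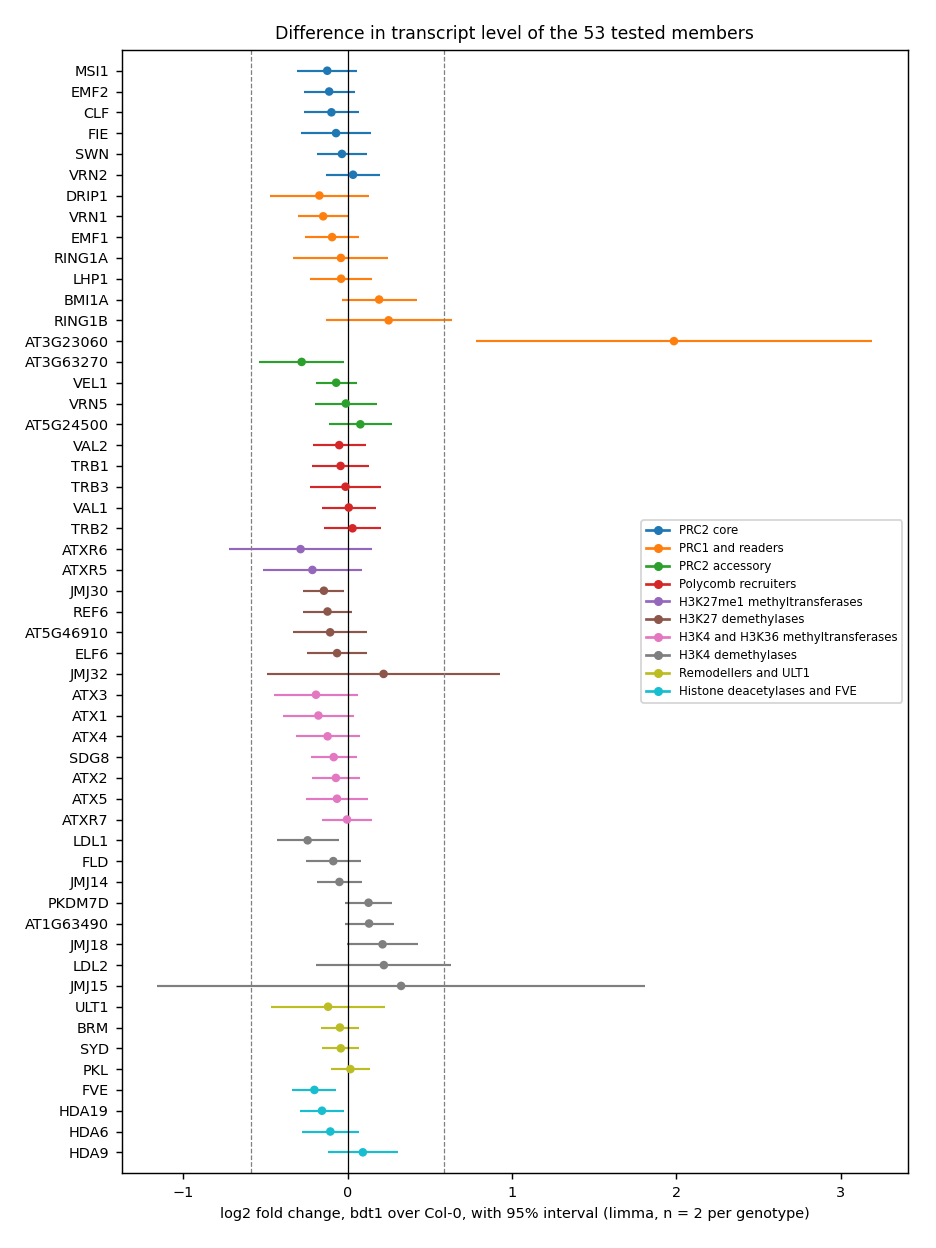
Log2 fold change of bdt1 over Col-0 for the 53 tested members (points) with 95% intervals from limma (bars), coloured by role. Dashed lines mark a 1.5-fold change. The intervals of 47 members stay inside those lines and most points lie left of 0.

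The 6 core subunits of PRC2 among the members kept nearly the same levels. CLF, a catalytic subunit that methylates H3K27, was at 829 and 795 normalised reads in Col-0 and at 736 and 781 in bdt1. Its bdt1 libraries lay just below both Col-0 libraries, at a log2 fold change of -0.10 (95% interval -0.27 to 0.07). SWN, the related catalytic subunit, was at 1517 and 1399 in Col-0 and at 1389 and 1457 in bdt1, so the genotypes overlapped (log2 fold change -0.03, interval -0.19 to 0.12). MSI1, a WD40 subunit shared with other histone complexes, had the largest difference of the 6, at 1140 and 998 in Col-0 and 996 and 962 in bdt1 (-0.12, interval -0.31 to 0.06). Both bdt1 libraries of MSI1 lay below both Col-0 libraries, and Col-0 replicate 2 lay closer to bdt1 than to Col-0 replicate 1. The log2 fold change of MSI1 was -0.03 without Col-0 replicate 1 and -0.22 without Col-0 replicate 2. EMF2, a subunit known for holding back flowering in seedlings, was at -0.11, with both bdt1 libraries below both Col-0 libraries. FIE was at -0.07, with overlap. VRN2, the EMF2 relative known for vernalisation, was at 0.03, with both bdt1 libraries above both Col-0 libraries. Per kb of its longest annotated transcript, MSI1 was the highest of the 6 in Col-0 at 658 ± 62.0 normalised reads and CLF the lowest at 235 ± 6.83 (SD, n = 2).

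PRC1 subunits and readers of the H3K27 mark held 1 gene that stood out in size. AT3G23060, annotated as a RING/U-box superfamily protein and listed with the PRC1 genes, was nearly silent in wild type. It had 2 and 4 recovered reads in the Col-0 libraries and 14 in each bdt1 library. Its normalised counts were 2.1 and 3.7 in Col-0 and 14.7 and 13.7 in bdt1, so the genotypes did not overlap. The log2 fold change was 1.99 (95% interval 0.78 to 3.19) and did not pass the test over all genes (limma adjusted p = 0.11). Summed over each genotype, 28 reads against 6 gave a ratio of 4.95 with an exact binomial 95% interval of 2.01 to 14.6, which covers counting error only. Its level in bdt1 was still low, at 7.51 ± 0.387 normalised reads per kb beside 146 ± 0.550 for BMI1A (SD, n = 2). The seed storage gene CRA1 was at 85.2 and 42.5 in Col-0 and 166 and 204 in bdt1 and was called higher (limma adjusted p = 0.037), and OLEO1, a seed oil body gene, was at 6.28 and 1.75 in Col-0 and 8.45 and 9.79 in bdt1 and did not pass (limma adjusted p = 0.41). Their part in the value of AT3G23060 was not tested.

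The 250 bases before the annotated start of AT3G23060 are shown beside those of BMI1A and DRIP1, the other RING-finger genes of this kind among the members, because AT3G23060 was nearly silent where the other pair was expressed. All 3 are from the TAIR10.1 genome and annotation of RefSeq, 5′ to 3′ on the gene's own strand. AT3G23060 (chr3:8200386-8200635, plus strand), BMI1A (chr2:13025661-13025910, plus strand) and DRIP1 (chr1:2082098-2082347, minus strand) held none of the 4 motifs searched, so no base is in capitals.
AT3G23060: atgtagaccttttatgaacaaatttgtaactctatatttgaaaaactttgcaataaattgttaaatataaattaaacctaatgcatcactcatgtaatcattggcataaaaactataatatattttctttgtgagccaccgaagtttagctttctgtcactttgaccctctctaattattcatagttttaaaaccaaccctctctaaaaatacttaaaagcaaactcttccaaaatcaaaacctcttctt
BMI1A: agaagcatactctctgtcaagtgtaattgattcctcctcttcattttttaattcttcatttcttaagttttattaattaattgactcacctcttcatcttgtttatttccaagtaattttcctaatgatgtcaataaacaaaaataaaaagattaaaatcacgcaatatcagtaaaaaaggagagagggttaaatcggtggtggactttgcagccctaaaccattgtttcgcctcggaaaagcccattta
DRIP1: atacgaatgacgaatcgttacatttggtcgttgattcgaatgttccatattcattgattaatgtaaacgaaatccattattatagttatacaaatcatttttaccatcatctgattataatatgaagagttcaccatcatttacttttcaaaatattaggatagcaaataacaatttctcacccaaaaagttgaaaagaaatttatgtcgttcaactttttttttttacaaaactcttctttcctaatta
These stretches held 28.0%, 32.4% and 26.4% G and C.

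BMI1A and DRIP1, whose products are RING-finger ubiquitin ligases known to bind DREB2A, had log2 fold changes of opposite sign, and neither passed. BMI1A was at 309 and 294 in Col-0 and 345 and 344 in bdt1, above both wild-type libraries (log2 fold change 0.19, 95% interval -0.04 to 0.42, limma adjusted p = 0.39). DRIP1 was at 276 and 259 in Col-0 and 262 and 215 in bdt1, where the genotypes overlapped (-0.17, interval -0.47 to 0.13). BMI1A therefore made up 52.0% and 52.4% of the pair's summed level per kb in Col-0 and 56.1% and 60.7% in bdt1. RING1A and RING1B, the ubiquitin ligases that partner them, were at -0.04 and 0.25, both with overlapping genotypes. LHP1, a chromodomain protein that binds methylated H3K27, was at 482 and 499 in Col-0 and 478 and 477 in bdt1 (-0.04, interval -0.23 to 0.15). VRN1, a DNA-binding protein known from vernalisation, had the highest level of the group at 498 ± 17 normalised reads per kb in Col-0 (SD, n = 2). It was at 983 and 937 reads in Col-0 and 858 and 873 in bdt1 (-0.15, interval -0.30 to 0.01). EMF1, a plant-specific silencing protein, was at -0.09.

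Of 5 accessory genes of PRC2, 4 were tested. VIN3, which is known to be induced by long cold, had 1 recovered read over the 2 Col-0 libraries and 1 over the 2 bdt1 libraries, too few for any comparison. Its relatives VRN5 and VEL1 were well expressed without cold. VEL1 reached 1003 ± 35.2 normalised reads per kb in Col-0 and 956 ± 5.43 in bdt1 (SD, n = 2), with a log2 fold change of -0.07, and VRN5 was at -0.01. AT3G63270, annotated as a nuclease, was at 392 and 334 in Col-0 and 297 and 299 in bdt1. Both bdt1 libraries lay below both wild-type libraries, at -0.28 (95% interval -0.54 to -0.02, limma adjusted p = 0.27). The value was -0.16 without Col-0 replicate 1 and -0.40 without Col-0 replicate 2. AT5G24500, annotated as a fantom protein, was at 0.08.

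The 5 recruiters, which bring Polycomb complexes to DNA, had overlapping genotypes without exception. Over all tested genes, both bdt1 libraries lay above both Col-0 libraries in 25.2% and below them in 23.7%, and the rest overlapped. TRB1, a telomere repeat binding factor, was the highest per kb at 516 ± 28.1 in Col-0 and 501 ± 11.8 in bdt1 (SD, n = 2). TRB2 and TRB3, of the same family, were at log2 fold changes of 0.03 and -0.01. VAL1 and VAL2, B3-domain proteins that bind the RY element, were at 0.01 and -0.05. Their 95% intervals were -0.16 to 0.17 and -0.21 to 0.11.

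Recruiters bind short DNA words, so the 250 bases before each annotated start were searched on both strands for AAACCCTA (the telobox bound by TRB proteins) and CATGCA (the core of the RY element). AAAATATCT (the evening element of clock-controlled genes) and GAGAGAGA (the GAGA repeat) were searched as well. A match is a description of letters and not a site. The telobox was found in 1 of 54 members (1.85%) and in 4.61% of 32548 promoters. The RY core was found in 4 members (7.41%; VAL1, ATXR7, AT1G63490 and LDL2) and in 8.77% of promoters, and the GAGA repeat in 5 members (9.26%; VEL1, REF6, ATX5, FLD and SYD) and in 4.71%. The evening element was in 0 members and 2.23% of promoters. The single telobox stood before a TRB gene and the only promoter with several RY matches stood before VAL1, so both stretches are shown (TAIR10.1, RefSeq, capitals mark the motif on either strand, overlapping matches run together).
VAL1 (chr2:12985493-12985527, minus strand, bases 250 to 216 before the start): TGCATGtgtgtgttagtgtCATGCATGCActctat
TRB3 (chr3:18488757-18488794, plus strand, bases 236 to 199 before the start): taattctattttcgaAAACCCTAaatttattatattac

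Of the enzymes that act on H3K27 outside PRC2, both methyltransferases and 4 of 5 demethylases had negative log2 fold changes, against 49.3% of all tested genes, and none passed. ATXR5 and ATXR6 place a single methyl group on H3K27 during DNA replication. ATXR5 was at 210 and 192 in Col-0 and 169 and 178 in bdt1 (log2 fold change -0.21, 95% interval -0.52 to 0.09), and ATXR6 at 87.7 and 87.2 in Col-0 and 72.6 and 70.5 in bdt1 (-0.29, interval -0.72 to 0.15). For each gene both bdt1 libraries lay below both Col-0 libraries, as in 23.7% of all tested genes. Neither passed (limma adjusted p = 0.47 and 0.50). Among the demethylases, JMJ30, a Jumonji gene known for daily rhythm, was the most abundant at 1243 ± 27.8 normalised reads per kb in Col-0 and 1125 ± 13.7 in bdt1 (SD, n = 2). It was at 2471 and 2394 reads in Col-0 and 2220 and 2182 in bdt1, without overlap (-0.14, interval -0.27 to -0.02, limma adjusted p = 0.24). The H3K27 demethylase REF6 was at -0.12 and its relative ELF6 at -0.06. AT5G46910, annotated as a jumonji family protein, was at -0.11. JMJ32 was low and variable, at 65.3 and 40.9 in Col-0 and 74.5 and 48.8 in bdt1 (0.22, interval -0.49 to 0.93).

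All 7 methyltransferases of H3K4 and H3K36 among the members had negative log2 fold changes, from -0.19 to -0.00. In 5 of the 7 both bdt1 libraries lay below both Col-0 libraries. Over all tested genes these shares were 49.3% and 23.7%, and 54.9% of tested genes with a mean of at least 100 reads were negative. Outside the members, the methyltransferase genes ATXR3, SDG4 and SDG26 were at 0.02, -0.16 and -0.11. None of the 7 passed. ATX3 was at 315 and 355 in Col-0 and 304 and 282 in bdt1 (-0.19, 95% interval -0.45 to 0.06). The trithorax gene ATX1 was at 442 and 404 in Col-0 and 368 and 380 in bdt1 (-0.18, interval -0.40 to 0.04). SDG8, which methylates H3K36, was the highest of the 7 per kb, at 357 ± 7.84 in Col-0 and 336 ± 17.4 in bdt1 (SD, n = 2; -0.08). ATX2, ATX4 and ATX5 were at -0.07, -0.12 and -0.06. ATXR7, known for activating the flowering repressor FLC, was at 987 and 954 in Col-0 and 967 and 970 in bdt1 (-0.00, interval -0.15 to 0.15).

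Demethylases of H3K4 had values on both sides of 0. Of 8 genes 5 were positive, with a median log2 fold change of 0.13. In 4 of them, PKDM7D, AT1G63490, JMJ18 and LDL2, both bdt1 libraries lay above both Col-0 libraries, as in 25.2% of all tested genes. In the 3 negative genes, JMJ14, LDL1 and FLD, both lay below, as in 23.7%. None of the 8 passed. PKDM7D was at 1100 and 1125 in Col-0 and 1215 and 1215 in bdt1 (0.13, 95% interval -0.01 to 0.27). AT1G63490, annotated as a jumonji domain protein, was at 939 and 916 in Col-0 and 1017 and 1013 in bdt1 (0.13, interval -0.02 to 0.28). JMJ18, a Jumonji H3K4 demethylase expressed in vascular tissue, was at 588 and 696 in Col-0 and 729 and 755 in bdt1 (0.21, interval -0.00 to 0.43). JMJ18 and AT1G30800 overlap on opposite strands, and whether reads were counted by strand is not given in the sources used here. JMJ14, the most abundant of the 8 per kb at 456 ± 5.11 in Col-0, was at -0.05, and JMJ15 had 6 reads over the 2 Col-0 libraries and 8 over the 2 bdt1 libraries.

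The 3 LSD1-like demethylases among the members, which act on H3K4 by another chemistry, had 1 positive and 2 negative log2 fold changes, and none passed. LDL3, outside the members, was at -0.11. LDL1 was at 528 and 537 in Col-0 and 451 and 448 in bdt1. The replicates of LDL1 agreed closely and the genotypes did not overlap, at a log2 fold change of -0.24 (95% interval -0.43 to -0.06, limma adjusted p = 0.19). LDL2 was at 81.5 and 88.2 in Col-0 and 100 and 97.9 in bdt1 (0.22, interval -0.19 to 0.63). LDL1 thus made up 87.0% and 86.3% of the summed level per kb of LDL1 and LDL2 in Col-0 and 82.3% and 82.5% in bdt1. FLD, an LSD1-like repressor of FLC, was at 726 and 710 in Col-0 and 661 and 691 in bdt1 (-0.09, interval -0.26 to 0.08).

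**Figure D3:**
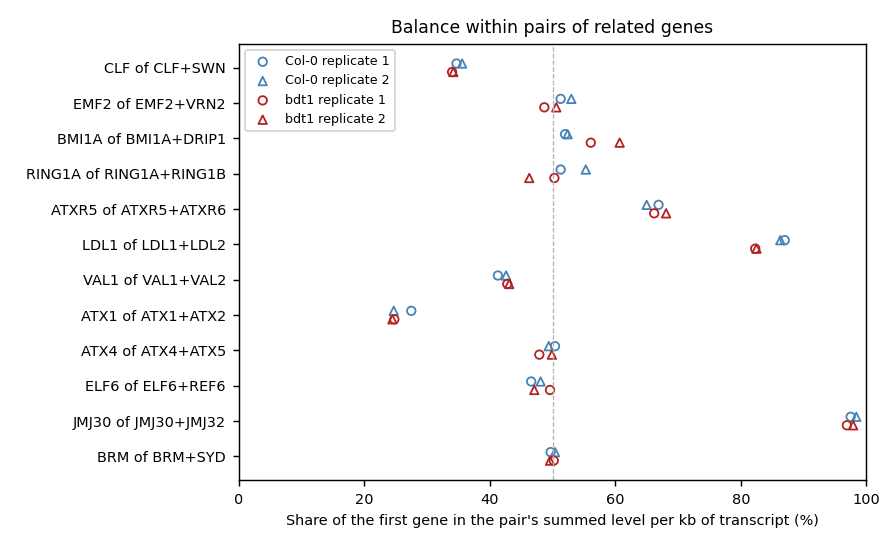
Share of the first gene in the summed level per kb of 12 pairs of related genes, as a percentage, with 1 symbol per library. The genotypes separate by a few percentage points for BMI1A with DRIP1, RING1A with RING1B and LDL1 with LDL2. They separate by less for CLF with SWN, EMF2 with VRN2 and VAL1 with VAL2, and lie on top of each other for BRM with SYD. For RING1A with RING1B the nearest symbols of the genotypes lie close together (51.3% and 55.3% in Col-0, 50.3% and 46.3% in bdt1).

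Beside BMI1A with DRIP1 and LDL1 with LDL2, the widest difference in share was that of RING1A. It made up 53.3 ± 2.85% of RING1A and RING1B in Col-0 and 48.3 ± 2.82% in bdt1 (SD, n = 2). The other pairs differed less between genotypes. CLF made up 35.1 ± 0.641% of CLF and SWN in Col-0 and 34.1 ± 0.188% in bdt1 (SD, n = 2). EMF2 made up 52.2 ± 1.23% and 49.6 ± 1.35% of EMF2 and VRN2. Across the 12 pairs the difference in share between genotypes ran from -5.05 to 6.22 percentage points, and in 6 pairs the genotypes overlapped. In the other 6, the shares of CLF, EMF2, BMI1A, RING1A, LDL1 and VAL1, they did not. With 2 libraries a genotype an exact permutation test of a single share could not have passed, so these shares are descriptions.

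Chromatin remodellers had small differences. BRM and SYD, the ATPases of SWI/SNF complexes, which are known to oppose Polycomb silencing, were at 3765 and 3838 and at 5566 and 5521 in Col-0, and at 3715 and 3646 and at 5375 and 5400 in bdt1. Their log2 fold changes were -0.05 (95% interval -0.16 to 0.07) and -0.04 (interval -0.15 to 0.07). The CHD3 remodeller PKL, known for silencing seed genes after germination, was at 3213 and 3268 in Col-0 and 3276 and 3283 in bdt1 (0.02, interval -0.10 to 0.13). It was the highest of the group per kb, at 716 ± 8.66 in Col-0 (SD, n = 2). ULT1, a trithorax-type factor, was at 393 and 307 in Col-0 and 358 and 286 in bdt1 (-0.12), with a wider gap between replicates than between genotypes.

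Histone deacetylases remove acetyl groups from histones, and FVE is a WD40 protein that works with them to repress FLC. FVE was at 2100 and 1997 in Col-0 and 1804 and 1757 in bdt1. Both bdt1 libraries lay below both wild-type libraries, at a log2 fold change of -0.20 (95% interval -0.34 to -0.07). The limma adjusted p was 0.14, and the edgeR adjusted p was 0.13. HDA19, the most abundant of the 54 genes per kb at 1470 ± 84.5 in Col-0 and 1319 ± 14.3 in bdt1 (SD, n = 2), was at 3020 and 2784 reads in Col-0 and 2623 and 2583 in bdt1 (-0.16, interval -0.29 to -0.02, limma adjusted p = 0.25). HDA6 and HDA9 were at -0.10 and 0.09.

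**Figure D4:**
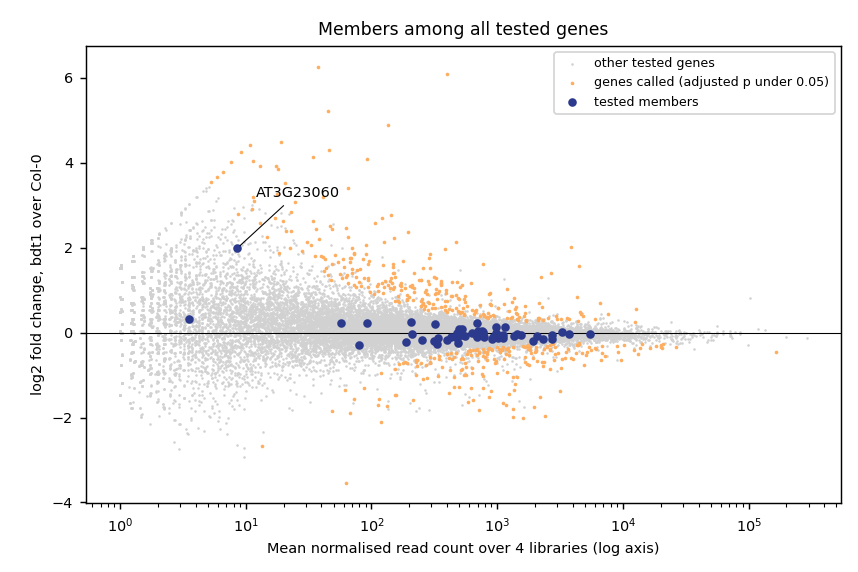
Log2 fold change of bdt1 over Col-0 against mean normalised read count (log axis) for all 23256 tested genes, with called genes in orange and the 53 tested members in dark blue. The members lie inside the grey band of genes that were not called, and AT3G23060 stands near 2 at a low count.

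Across all members, levels in Col-0 spanned from 0.210 normalised reads per kb for VIN3 to 1470 for HDA19. After HDA19 the order ran JMJ30, VEL1, FVE, PKL, MSI1, TRB1, BRM, SYD and VRN1, of which the last 4 lay within 20 reads per kb of each other. With coding length in place of transcript length, 8 of these 10 were again among the 10 highest. The tested members had long transcripts with many exons, at a median of 2599 bases and 9 exons against 1647 bases and 4 exons for all tested genes. They lay on all 5 chromosomes, with 9, 9, 13, 8 and 15 on chromosomes 1 to 5, and 21 of the 54 overlapped another annotated gene.

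Other genes of related machinery were counted in the same way. In 5 further lists with 82 genes, 79 were tested and 0 were called higher or lower, with a median log2 fold change of -0.05, where 2.06% of all tested genes were called. None of 13 tested PRC2-related genes, 11 of H3K4 and H3K36 methylation, 10 of H3K9 methylation, 22 of remodelling complexes or 23 of deacetylation and acetylation passed. Genes that Polycomb is known to silence were also counted. Of 24 such targets 21 were tested, 2 were called higher and 0 lower, and log2 fold changes were positive for 15, at a median of 0.38 over the 21. Several had low counts and wide intervals. The other 6 were negative, among them FLC, at 26.4 and 20.1 in Col-0 and 9.58 and 17.7 in bdt1. Its log2 fold change was -0.77 (95% interval -1.73 to 0.19, limma adjusted p = 0.41). Of all tested genes 1.2% were called higher and 49.3% had a negative log2 fold change, at a median of 0.00. SOC1, a flowering integrator, was at 297 and 352 in Col-0 and 701 and 661 in bdt1 (1.07, SE 0.10, limma adjusted p = 0.0028). PHE1, a MADS-box gene of the endosperm, had 0 and 2 reads in Col-0 and 23 and 26 in bdt1, a ratio of 26.0 (exact binomial 95% interval 6.82 to 221). These targets were chosen with earlier results of these data known and give no independent evidence of a direction.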

How the data were processed

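Paired-end reads of 150 bases came from 4 seedling libraries. Per the submitters' processing notes, HISAT2 2.2.0, edgeR and the TAIR10 build were used. No counter, annotation version or strand setting is given in the sources used here. Values as deposited are a signal, a normalised read count per gene that the authors adjusted to 1 library size. That adjustment was inverted with a fitted dispersion of 0.00544, and the results were rounded to whole reads. Adjusting these whole reads again gave back 100% of the deposited values to within 0.001 normalised reads. It was tested on simulated data, as was the limma fit. Since the values are not raw counts, the test was limma 3.58.1 in R 4.3.3, on log2 of the normalised count plus a pseudocount of 1, with an intensity trend, for genes averaging at least 1. P-values were adjusted by Benjamini-Hochberg over all tested genes at a threshold of 0.05. Fold changes on this scale understate those of low genes. edgeR 4.0.16 and DESeq2 1.42.0 on recovered counts, other pseudocounts, filters and scalings, a replicate block and leaving out each library were alternatives. P-values measure the spread between 2 libraries a genotype. All 32548 identifiers matched the TAIR10.1 annotation. Where it gave no name in use, the identifier or its symbol is printed. The members, lists and tests were chosen with earlier results of these data known.

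Genes described in full were members with an unadjusted p under 0.05, those with the highest level per kb or the largest change in each role, and CLF, SWN and LHP1. Others are named to account for the list. Python 3.11.15 with numpy 2.4.6, pandas 2.3.3, scipy 1.17.1 and matplotlib 3.10.9 served the other steps.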

Additional observations from a re-analysis of the deposited data

How the results depend on the processing

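With all libraries, 0 members were called higher and 0 lower by limma with pseudocounts of 0.1 and 5, both other filters, and quantile and TMM scaling. The same held for edgeR and DESeq2 on recovered counts. Limma without the trend also called 0 members, but it called so few genes in all that this says little about the members. The replicate block called 1 higher (AT3G23060, adjusted p = 0.049) and 1 lower (FVE, adjusted p = 0.039). It called 901 higher and 917 lower genes in all. The labels give no pairing of replicates. The differences between replicates 1 and 2 in Col-0 and in bdt1 correlated at 0.0136 across 20355 genes. A correlation over all genes cannot show whether same-numbered libraries were prepared together. With 1 library left out, limma called 0 to 540 genes higher and 0 to 776 lower, and called 0 without either bdt1 replicate. The lone library of a genotype is then assumed to vary like the others. edgeR called 289 to 1225 higher (870 without Col-0 replicate 1) and 225 to 1273 lower (1245 without Col-0 replicate 1, 334 without bdt1 replicate 2). Without Col-0 replicate 2, edgeR called 10.7% of all tested genes, among them 1 member higher (JMJ18, 0.33) and 4 lower (HDA19 -0.22, FVE -0.24, JMJ30 -0.17 and AT3G63270 -0.40).

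Limma without the trend called 42 higher and 6 lower genes, and a pseudocount of 0.1 called 123 lower. The members' median log2 fold change was -0.0394 under quantile normalisation. With a library left out it ran from -0.0609 to -0.0445 in limma, and it was -0.0456 in edgeR without bdt1 replicate 2. Of 412 recomputed values of 23 members, 17 changed sign, and the cause was not tested. JMJ15 went to -0.0565 under quantile normalisation, and with a library left out ran from -0.00882 to 0.66 in limma and was -0.0118 in edgeR without bdt1 replicate 1. JMJ32 ran from -0.111 to 0.55 in limma, with -0.0804 without bdt1 replicate 1, and edgeR gave -0.0916 without Col-0 replicate 2 and -0.122 without bdt1 replicate 1. In limma with a library left out, SWN ran from -0.0927 to 0.024, TRB1 from -0.0979 to 0.013, VAL2 from -0.117 to 0.0155 and ULT1 from -0.297 to 0.0593. In edgeR without Col-0 replicate 1 these 4 were at 0.0248, 0.0129, 0.0156 and 0.0642. ULT1 was also positive without bdt1 replicate 2 (0.043 in limma, 0.0349 in edgeR).

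Depth limits AT3G23060, JMJ15 and VIN3, which rest on 34, 14 and 2 reads over the 4 libraries.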
